A study of Mus musculus with 19 samples.

Results

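The genes described here encode SR proteins, heterogeneous nuclear ribonucleoproteins (hnRNPs) and polypyrimidine tract binding (PTB) proteins, 3 groups of general RNA-binding factors that steer pre-mRNA splicing. They were chosen by a rule on symbols, set with earlier results of these data known. It took expression table lines named Srsf or Sfrs with a number, Hnrnp or Hnrp with a letter, Ptbp1, Ptbp2, Tra2a or Tra2b. This gave 37 of 22958 lines, with 36 distinct symbols: 14 SR proteins and relatives, 2 PTB proteins and 21 lines of hnRNPs. Hnrnpa1 stood on 2 lines, of which one was listed at 0 reads in every library and could not be tested, so 36 lines passed the filter on low counts.

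RNA-seq was done on mouse cells grown from embryonic stem cells (ESC), in 3 libraries of ESC-derived glial cells, called glia here, and 4 libraries of ESC-derived glial progenitor cells (GPC). Both groups carry the same culture text, in which neural differentiation was driven by all-trans retinoic acid, cells bearing the A2B5 surface antigen were sorted with magnetic beads and then grown with EGF and FGF2. How the glia were made from there is not stated in the labels, and no genotype or treatment that differs between the groups is named. ChIP-seq peak lists for SOX3, SOX9 and NFIA were made in GPC. The labels number the replicates but do not say whether each was a culture of its own. The p-values therefore reflect only how far these libraries spread, and that spread may be technical.

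SR proteins carry RNA recognition motifs and a tail rich in arginine and serine. They bind exonic enhancers, help the spliceosome to recognise exons, and are moved and switched by phosphorylation of that tail. Most hnRNPs coat nascent transcripts and often oppose exon inclusion, while some also act in mRNA export, transport and decay. PTB proteins silence exons that lie beside pyrimidine-rich tracts, and the replacement of PTBP1 by PTBP2 is a known step of neuronal differentiation. In oligodendrocytes some hnRNPs are known for their part in the transport of Mbp mRNA.

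Reads counted in genes ranged from 6897294 to 17369367 in glia and from 12836998 to 22439837 in GPC. The labelled cell types were checked against marker lists. Over all genes tested 35.2% rose and 35.2% fell. Of 11 astrocyte markers 10 rose and 1 fell in glia, among them Gfap at 3258 ± 291 RPKM in glia and 8.37 ± 4.70 RPKM in GPC (SD, n = 3 and 4), and all 9 oligodendrocyte markers rose. Of 10 progenitor markers 8 fell and 1 rose, with Nes at 21.8 ± 2.30 RPKM in glia and 132 ± 5.77 RPKM in GPC. All 8 mesenchymal markers rose (summed level 655 to 797 RPKM in glia and 149 to 162 RPKM in GPC), as did 6 of 12 neuronal markers, with 1 that fell. The pluripotency genes Pou5f1, Zfp42 and Dppa5a were listed at 0 in every library, and the 1 of 7 pluripotency genes that passed the filter on low counts fell. Tdgf1, Nanog and Utf1 did not pass and were low, with higher means in glia. Tdgf1 was at 0.897 ± 0.575 RPKM in glia and 0.0293 ± 0.0339 RPKM in GPC. Nanog was at 0.575 ± 0.422 RPKM in glia and 0.284 ± 0.224 RPKM in GPC. Among the microglial genes Cx3cr1 was at 0 throughout, and Tmem119 was the only one of 7 that passed the filter on low counts, at 8.07 ± 0.642 RPKM in glia and 1.74 ± 0.357 RPKM in GPC. Of 5 endothelial genes 1 passed the filter and rose, and Cldn5 was at 0. GPC replicate 3, the deepest library, lay apart from the other GPC libraries on the second principal component, which held 4.48% of the variance. On the first, which held 90.4%, it lay nearer to glia (46.8, against 63.1 to 64.8 for the other GPC and -80.4 to -79.1 for glia). It also had the most astrocyte marker RNA of the GPC libraries (summed level 1430 RPKM, against a lowest GPC sum of 969 RPKM), with Gfap at 15.4 RPKM, against 5.64 to 6.52 RPKM in the other GPC. Of the 11 astrocyte markers 9 were higher in it than the mean of the other GPC. Aldoc was at 684 RPKM, against 347 to 367 RPKM in the other GPC. Clu was lower (12.7 RPKM, against 21.0 to 23.2 RPKM), and Slc1a3 lay within their range (296.6 RPKM, against 292.5 to 306.3 RPKM).

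The SR protein and hnRNP genes were mostly lower in glia. Of the 36 tested members 30 fell, 3 rose and 3 passed in neither direction (two-sided quasi-likelihood test of edgeR, with an adjusted p under 0.05 by Benjamini and Hochberg). Across all 13588 genes tested, 70.4% passed in either direction, 35.2% fell and 35.2% rose. The median log2 change (glia over GPC) was -0.58 over the members and 0.0013 over all genes tested. Of the 36 tested members 4 fell at least 2-fold, a share close to the 9.24% of all genes. Rises of at least 2-fold were called in 1 member and in 16.5% of all genes. In 30 members every glia value lay below every GPC value, against 32.1% of all genes, and in 3 every glia value lay above, against 36.9%. Because these are bulk samples, fewer cells of a type and less RNA per cell cannot be told apart.

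Summed over all members, levels were 3469, 3520.4 and 3519 RPKM in glia replicates 1 to 3, against 5339, 5471, 5285 and 5325 RPKM in GPC replicates 1 to 4. No glia library came near the lowest GPC library. The glia mean was 65.4% of the GPC mean. By family, glia stood at 62.7% of GPC for the hnRNPs (2426 ± 9.08 and 3869 ± 94.4 RPKM, SD, n = 3 and 4) and at 73.6% for the SR proteins (967 ± 19.8 and 1314 ± 42.8 RPKM). Of the reads counted in genes, members took between 0.758% and 0.782% in glia libraries and between 1.11% and 1.16% in GPC libraries. Ranked by level per length, 14 members were among the 1000 most abundant genes of the table in glia and 22 in GPC.

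**Figure D1:**
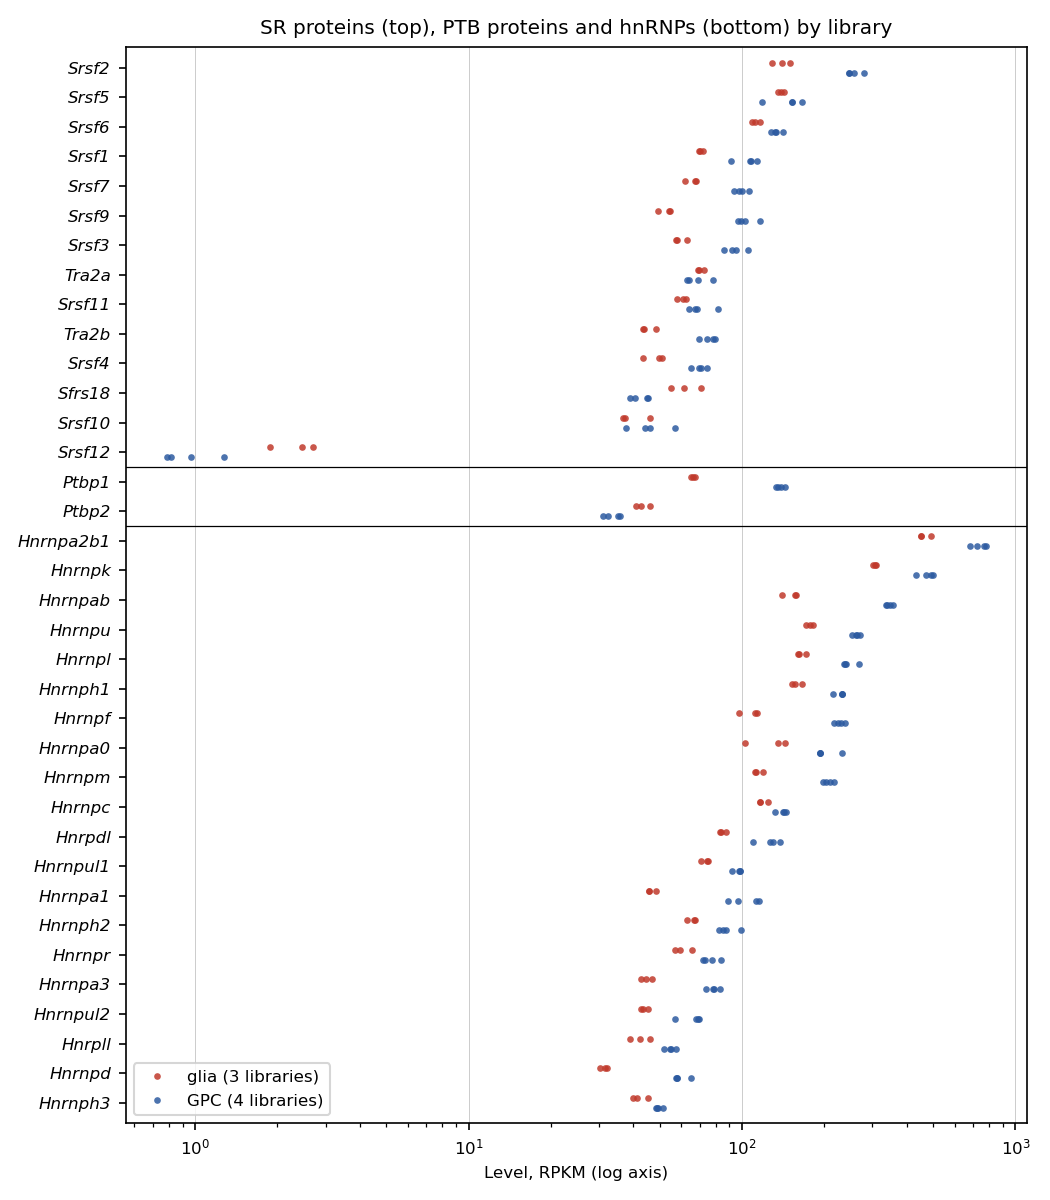
Level of each member with reads in every library, in RPKM on a log axis, with 3 glia libraries (red) drawn above 4 GPC libraries (blue) in each row. Rows are ordered by mean level within SR proteins, PTB proteins and hnRNPs; glia points lie left of all GPC points in 30 of the 36 rows.

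Among the 14 SR proteins and relatives, 9 fell (64.3%), 2 rose (14.3%) and 3 passed in neither direction, against 35.2% of all genes in each direction. Srsf2, also called SC35 and used as a marker of nuclear speckles, had the highest mean level of the family. It gave 139.7, 129 and 149 RPKM in glia replicates 1 to 3, against 245, 256, 279 and 247 RPKM in GPC replicates 1 to 4. The glia libraries were all lower, with a log2 change of -0.91 ± 0.08 (± SE, adjusted p = 3.44e-06 by edgeR). Srsf9, also called SRp30c, showed the largest fall of the family, with 54.2, 49.3 and 54.7 RPKM in glia replicates 1 to 3, against 102, 99.6, 116 and 97.1 RPKM in GPC replicates 1 to 4. All 3 glia values were far below the lowest GPC value, with a log2 change of -0.998 ± 0.086 (adjusted p = 3.01e-06 by edgeR).

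Srsf1, the splicing factor also known as ASF/SF2, which further acts in export and translation, averaged 70.7 ± 1.27 RPKM in glia and 105 ± 9.57 RPKM in GPC (SD, n = 3 and 4; log2 change -0.59 ± 0.08). Srsf3, a small SR protein with roles in mRNA export and 3′ end processing, averaged 59.4 ± 3.24 RPKM in glia and 94.5 ± 8.23 RPKM in GPC (log2 change -0.59 ± 0.07). Srsf7, which carries a zinc knuckle beside its RNA recognition motif, averaged 65.6 ± 3.10 RPKM in glia and 99.3 ± 5.52 RPKM in GPC (log2 change -0.58 ± 0.07). Srsf4, with a long arginine- and serine-rich tail, averaged 48.0 ± 4.14 RPKM in glia and 70.1 ± 3.90 RPKM in GPC (log2 change -0.57 ± 0.08). In the fit of counts these 4 genes changed by nearly the same amount, between -0.59 and -0.57 on the log2 scale. The log2 ratio of mean RPKM spread more, from -0.67 for Srsf3 to -0.55 for Srsf4. In each gene the groups did not overlap. Srsf6, the gene of SRp55, had a smaller change, at 112 ± 3.77 RPKM in glia and 134 ± 6.07 RPKM in GPC (log2 change -0.29 ± 0.06). In edgeR's fit of all genes, the adjusted p was 8.66e-05 for Srsf1, 3.98e-05 for Srsf3, 2.88e-05 for Srsf7, 0.000118 for Srsf4 and 0.00189 for Srsf6.

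Srsf11, Srsf5 and Srsf10 had small log2 changes, and their calls depended on single libraries or did not pass. Srsf11, the gene of the SR-related protein p54, gave 58.0, 62.5 and 60.6 RPKM in glia replicates 1 to 3, against 64.2, 68.3, 81.5 and 67.2 RPKM in GPC replicates 1 to 4. GPC replicate 3 was the highest value, and the lowest GPC value was just above the highest glia value. Its log2 change of -0.26 ± 0.08 passed (adjusted p = 0.0159 by edgeR), but not without glia replicate 1 (adjusted p = 0.0664). Without GPC replicate 3 the Srsf11 change was -0.18 and still passed (adjusted p = 0.00703 by edgeR). Srsf5, the gene of SRp40, gave 138, 135 and 142 RPKM in glia replicates 1 to 3, against 166, 152, 118 and 153 RPKM in GPC replicates 1 to 4. Here GPC replicate 3 was the lowest of all 7 libraries and the groups overlapped. Its log2 change was -0.095 ± 0.10 with all libraries (adjusted p = 0.401 by edgeR) and -0.18 without GPC replicate 3 (adjusted p = 0.0179). Srsf10, or SRp38, a splicing repressor when dephosphorylated, gave 36.7, 46.2 and 37.2 RPKM in glia replicates 1 to 3, against 37.7, 46.1, 57.0 and 44.1 RPKM in GPC replicates 1 to 4. Its values overlapped between groups, with glia replicate 2 and GPC replicate 3 the highest of their groups (log2 change -0.20 ± 0.13, adjusted p = 0.206 by edgeR), and it did not pass under any alternative setting (adjusted p of 0.0558 to 0.448). Without GPC replicate 3 the Srsf10 change was -0.087.

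The 2 SR members that rose were the least abundant SR gene and one that lies outside the classical family. Srsf12, whose human protein is known to counter other SR proteins, gave 2.46, 1.87 and 2.70 RPKM in glia replicates 1 to 3, against 0.819, 1.27, 0.967 and 0.787 RPKM in GPC replicates 1 to 4. It rested on 125, 38 and 138 reads in glia and 31, 49, 64 and 30 reads in GPC, and every glia library was above every GPC library. The log2 change was 1.28 ± 0.20 (adjusted p = 0.000245 by edgeR). On the log2(RPKM + 1) scale, which understates the change of low genes, it was 0.77. Sfrs18, now named Pnisr, encodes a nuclear arginine- and serine-rich protein, and gave 55.1, 70.9 and 61.3 RPKM in glia replicates 1 to 3, against 40.5, 38.8, 44.8 and 45.2 RPKM in GPC replicates 1 to 4. Glia replicate 2 was the highest, and all 3 glia values were above all GPC values (log2 change 0.53 ± 0.09, adjusted p = 0.000439 by edgeR).

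The TRA2 pair, relatives of SR proteins that bind GAA-rich enhancers, split. Tra2b gave 43.5, 48.4 and 43.8 RPKM in glia replicates 1 to 3, against 69.9, 79.7, 74.2 and 78.2 RPKM in GPC replicates 1 to 4. Every glia library was lower, with a log2 change of -0.78 ± 0.08 (adjusted p = 7.82e-06 by edgeR). Tra2a gave 69.1, 69.6 and 72.7 RPKM in glia replicates 1 to 3, against 64.2, 63.1, 78.1 and 69.0 RPKM in GPC replicates 1 to 4. Its groups overlapped, with the lowest and the highest of all 7 values both in GPC, and its log2 change was 0.0059 ± 0.08 (adjusted p = 0.954 by edgeR). The sign of the Tra2a change turned under 6 distinct alternative fits, never with a call. The ratio of Tra2a to Tra2b was 1.59, 1.44 and 1.66 in glia, against 0.919, 0.792, 1.05 and 0.883 in GPC.

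The PTB pair moved in opposite directions. Ptbp1, the broadly expressed PTB protein that represses neuronal exons in progenitors and non-neural cells, gave 66.2, 67.1 and 65.1 RPKM in glia replicates 1 to 3, against 143, 139, 136 and 133 RPKM in GPC replicates 1 to 4. Values were tight in both groups, and the highest glia library was far below the lowest GPC library. The log2 change was -1.09 ± 0.06 (adjusted p = 1.17e-07 by edgeR). Ptbp2, its paralog best known from neurons, gave 42.6, 46.2 and 40.8 RPKM in glia replicates 1 to 3, against 31.0, 35.9, 35.3 and 32.4 RPKM in GPC replicates 1 to 4. All glia values were above all GPC values, by 0.33 ± 0.08 on the log2 scale (adjusted p = 0.00287 by edgeR). Ptbp1 is known to lower Ptbp2 mRNA by causing an exon of it to be skipped. The ratio of Ptbp2 to Ptbp1 was 0.643, 0.688 and 0.627 in glia, against 0.217, 0.259, 0.260 and 0.244 in GPC, and Ptbp1 was the more abundant of the pair per length in every library. Of 12 neuronal marker genes 6 rose in glia and 1 fell, with a summed level of 354 to 372 RPKM in glia and 290 to 302 RPKM in GPC. The 6 that rose were Elavl3 (32.0 ± 6.91 RPKM in glia and 2.81 ± 0.164 RPKM in GPC; log2 change 3.48 ± 0.15), Dcx (30.9 ± 3.68 RPKM in glia and 4.65 ± 0.274 RPKM in GPC; 2.69 ± 0.09), Syt1 (4.79 ± 0.439 RPKM in glia and 0.479 ± 0.0913 RPKM in GPC; 3.28 ± 0.15), Rbfox3, Tubb3 and Nefl, and Map2 fell (log2 change -0.27 ± 0.08). The 5 that passed in neither direction were Snap25 (log2 change 0.11 ± 0.10), Gap43 (0.10 ± 0.07), Elavl4 (0.096 ± 0.13), Nefm (-0.052 ± 0.13) and Stmn2 (-0.73 ± 0.57). Over all genes tested 35.2% rose and 35.2% fell. The part of neuronal cells in the PTB result was not tested.

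**Figure D2:**
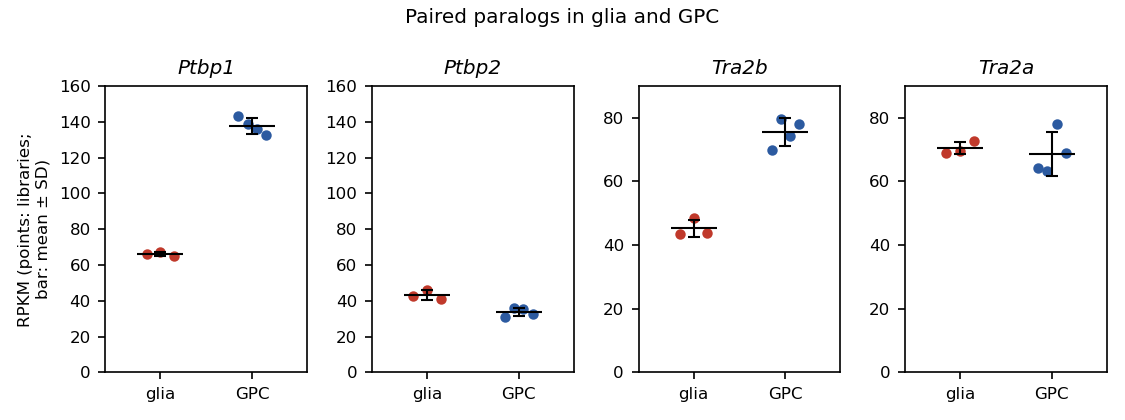
RPKM of Ptbp1, Ptbp2, Tra2b and Tra2a in 3 glia libraries (red, left) and 4 GPC libraries (blue, right), with mean and SD in black and axes starting at 0. Ptbp1 and Tra2b were lower in every glia library, Ptbp2 was higher in every glia library, and the groups overlapped for Tra2a.

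All 20 tested lines named Hnrnp or Hnrp fell, with log2 changes between -1.23 and -0.27 and no overlap between groups in any of them. Over all genes tested 35.2% fell, and in 32.1% every glia value lay below every GPC value. The PTB pair, of which Ptbp2 rose, was counted apart by symbol. The A/B and D subfamily, proteins with paired RNA recognition motifs, held both the most abundant member and the largest fall. Hnrnpa2b1, which binds a transport element in Mbp mRNA in oligodendrocytes, gave 453, 489 and 453 RPKM in glia replicates 1 to 3, against 767, 782, 679 and 724 RPKM in GPC replicates 1 to 4. It was the most abundant member in all 7 libraries, and the glia values were all lower (log2 change -0.56 ± 0.07, adjusted p = 5.36e-05 by edgeR). The same gene gave a log2 ratio of mean RPKM of -0.67. The line joins several transcripts, and the length implied by its reads and RPKM moved by 419 bases between libraries, the most of any member.

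Hnrnpab, the gene of CBF-A, which binds the same transport element, fell most of all members. It gave 156, 139.8 and 158 RPKM in glia replicates 1 to 3, against 339, 349, 358 and 337 RPKM in GPC replicates 1 to 4. Glia replicate 2 was the lowest, and all glia libraries were more than 2-fold below all GPC libraries (log2 change -1.23 ± 0.07, adjusted p = 2.06e-07 by edgeR). Hnrnpd, or AUF1, which binds AU-rich elements and speeds mRNA decay, gave 32.0, 31.6 and 30.2 RPKM in glia replicates 1 to 3, against 57.9, 64.8, 57.5 and 57.9 RPKM in GPC replicates 1 to 4. The glia values were close together and far below the GPC values (log2 change -0.96 ± 0.07, adjusted p = 6.86e-07 by edgeR). Hnrpdl, now Hnrnpdl, the relative of Hnrnpd, averaged 84.8 ± 2.22 RPKM in glia and 126 ± 11.7 RPKM in GPC (SD, n = 3 and 4; log2 change -0.60 ± 0.08).

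Hnrnpa1, the classical silencer of exons, gave 48.5, 45.6 and 45.8 RPKM in glia replicates 1 to 3, against 96.6, 115, 88.8 and 113 RPKM in GPC replicates 1 to 4. All glia values were lower, with a log2 change of -1.16 ± 0.13 (adjusted p = 1.92e-05 by edgeR). This line rested on 48 to 126 reads in glia and 188 to 302 reads in GPC, over a counted length of only 151 bases, the shortest of any member. Hnrnpa1 has near-identical copies in the genome and a second line at 0, so its level is uncertain. Hnrnpa3 averaged 44.7 ± 2.03 RPKM in glia and 78.6 ± 3.55 RPKM in GPC (log2 change -0.84 ± 0.08). Hnrnpa0, encoded by a gene without introns in its coding part, gave 136, 102 and 144 RPKM in glia replicates 1 to 3, against 194, 192, 232 and 192 RPKM in GPC replicates 1 to 4. Glia replicate 2 was the lowest and GPC replicate 3 the highest, and the spread within glia was the widest among the hnRNPs (log2 change -0.70 ± 0.13, adjusted p = 0.000716 by edgeR). Without glia replicate 2 the Hnrnpa0 change was -0.56.

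The F and H proteins, which bind runs of guanine, fell by unequal amounts. Hnrnpf gave 111, 97.7 and 113 RPKM in glia replicates 1 to 3, against 239, 218, 224 and 230.5 RPKM in GPC replicates 1 to 4. Its glia values were all far below the GPC values (log2 change -1.06 ± 0.07, adjusted p = 6.86e-07 by edgeR). Hnrnph1 averaged 158 ± 7.04 RPKM in glia and 228 ± 8.44 RPKM in GPC (log2 change -0.56 ± 0.06), and Hnrnph2, the X-linked paralog, 65.7 ± 2.43 RPKM in glia and 88.5 ± 7.17 RPKM in GPC (log2 change -0.46 ± 0.08). Hnrnph3 gave 41.1, 45.3 and 40.0 RPKM in glia replicates 1 to 3, against 51.4, 49.4, 48.3 and 48.8 RPKM in GPC replicates 1 to 4. The 2 groups lay close together, with glia replicate 2 only just below the lowest GPC library. Its log2 change of -0.27 ± 0.09 passed (adjusted p = 0.018 by edgeR), but not without glia replicate 1 (adjusted p = 0.0739) or glia replicate 3 (0.0703). The counted length was 347 bases for Hnrnpf and 404 bases for Hnrnph3.

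Other abundant hnRNPs fell by about the members' median. Hnrnpk, a KH-domain protein that binds cytosine-rich RNA and DNA, gave 302, 307 and 310.1 RPKM in glia replicates 1 to 3, against 492, 501, 434 and 472 RPKM in GPC replicates 1 to 4. The glia values lay within a few RPKM of each other and well below GPC (log2 change -0.66 ± 0.07, adjusted p = 8.55e-06 by edgeR). Hnrnpu, a nuclear scaffold protein also called SAF-A, gave 177, 182 and 172 RPKM in glia replicates 1 to 3, against 262, 269, 253 and 264 RPKM in GPC replicates 1 to 4. No library of one group came near the other group (log2 change -0.60 ± 0.06, adjusted p = 8.53e-06 by edgeR). Hnrnpl, which binds CA repeats, gave 162, 161 and 172 RPKM in glia replicates 1 to 3, against 239, 237, 267 and 239.6 RPKM in GPC replicates 1 to 4. GPC replicate 3 was the highest library, and all glia values were lower (log2 change -0.60 ± 0.07, adjusted p = 2.88e-05 by edgeR).

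Of the remaining hnRNPs, Hnrnpm, which binds GU-rich RNA, changed most, at 115 ± 4.19 RPKM in glia and 207 ± 8.93 RPKM in GPC (SD, n = 3 and 4; log2 change -0.88 ± 0.06). The Hnrnpu relatives Hnrnpul2 and Hnrnpul1 averaged 43.8 ± 1.35 RPKM in glia and 65.9 ± 6.16 RPKM in GPC (log2 change -0.62 ± 0.08) and 73.3 ± 2.33 RPKM in glia and 96.6 ± 3.15 RPKM in GPC (log2 change -0.43 ± 0.06). Hnrpll, the Hnrnpl relative known from CD45 splicing in lymphocytes, averaged 42.5 ± 3.58 RPKM in glia and 54.6 ± 2.16 RPKM in GPC (log2 change -0.39 ± 0.07). Hnrnpr averaged 60.6 ± 4.60 RPKM in glia and 76.6 ± 5.26 RPKM in GPC (log2 change -0.37 ± 0.08). Hnrnpc, which binds uridine tracts and helps to package nascent transcripts, had one of the smallest falls, at 119 ± 4.41 RPKM in glia and 139.9 ± 5.80 RPKM in GPC (log2 change -0.27 ± 0.06). In edgeR's fit of all genes, the largest adjusted p among the hnRNPs was that of Hnrnph3, and the next was 0.00273, for Hnrnpc.

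**Figure D3:**
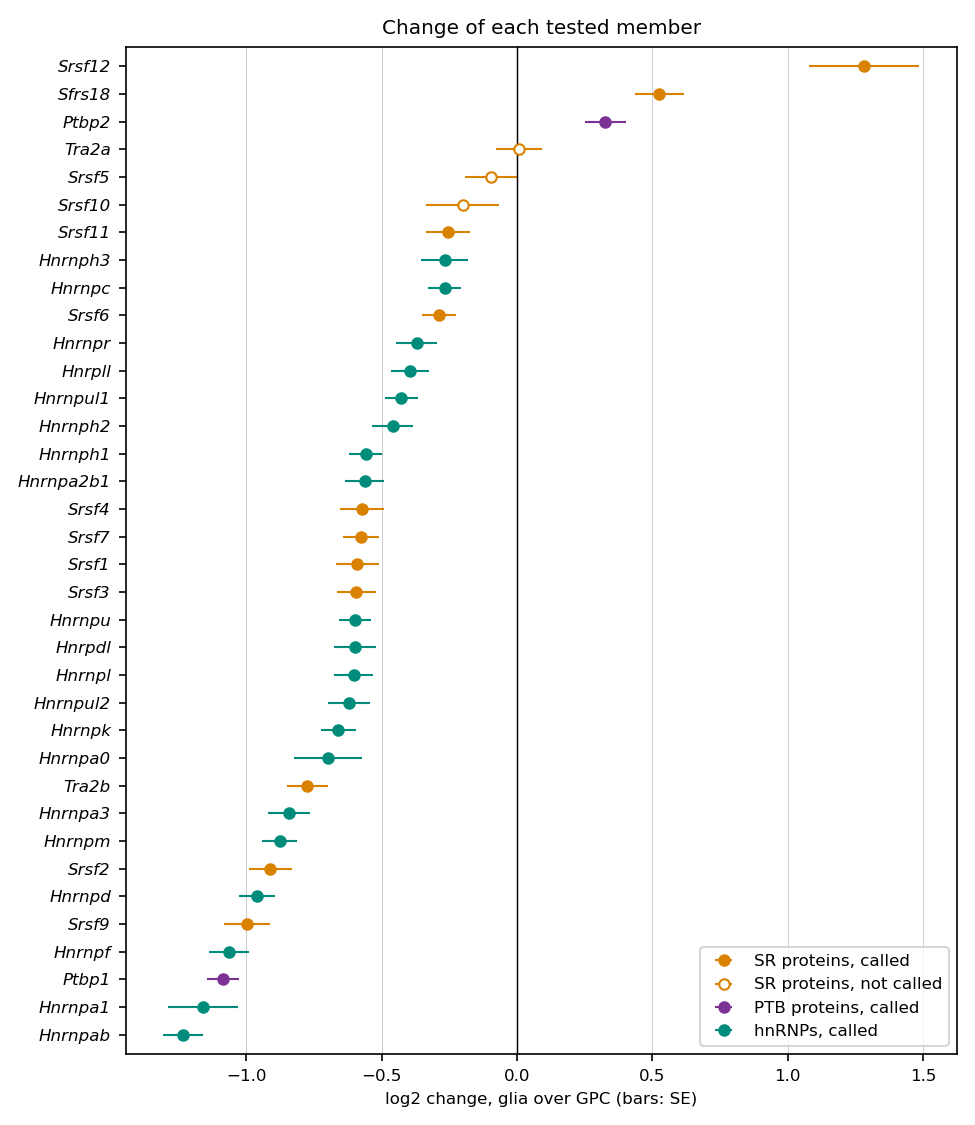
log2 change in glia over GPC of each of the 36 tested members, with its standard error from the fit of all genes, coloured by family; open points did not pass an adjusted p of 0.05. Changes run from -1.23 for Hnrnpab to 1.28 for Srsf12, and 30 filled points lie left of 0.

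The coefficient of variation of RPKM over the members had a median of 4.50% in glia (1.32% to 18.1%) and of 6.13% in GPC (2.56% to 23.1%), with Srsf12 the most variable in both. GPC replicate 3 gave the highest GPC value for 11 of 36 members and the lowest for 15. Its level relative to the mean of the other GPC ranged from 0.753 for Srsf5 to 1.34 for Srsf10. Glia replicate 2, the library with the fewest reads, gave the highest glia value for 19 members and the lowest for 11.

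**Figure D4:**
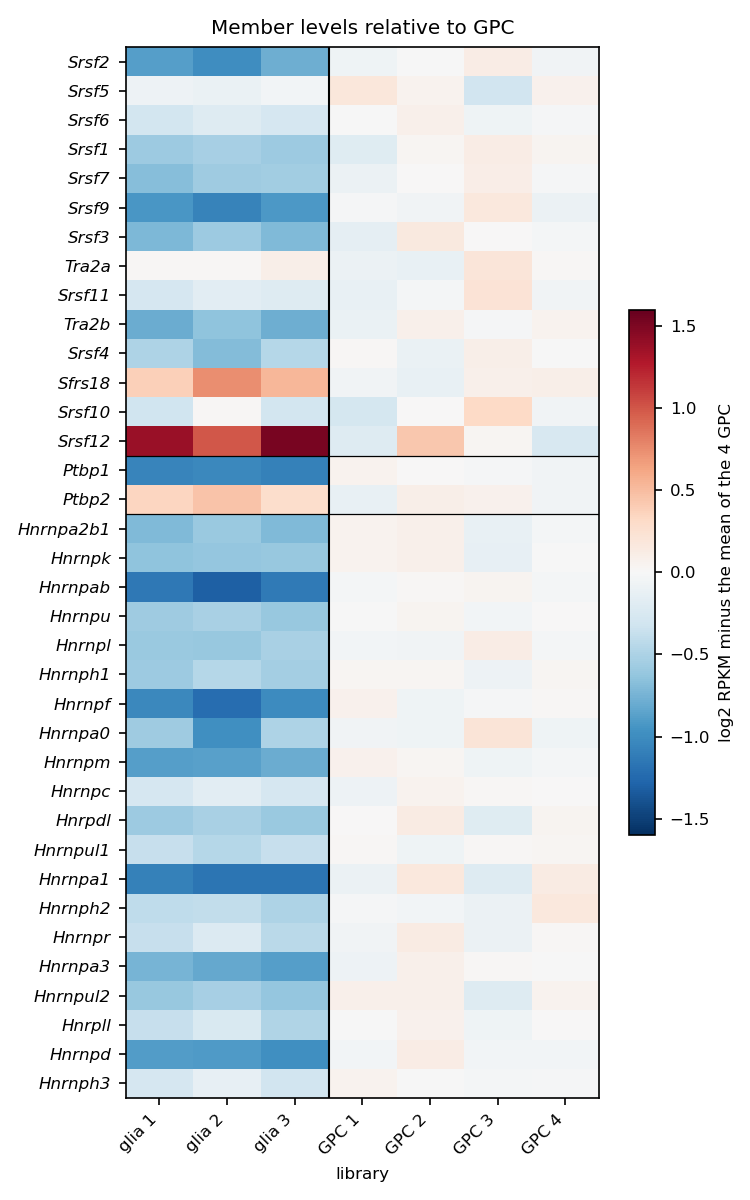
log2 RPKM of each member in 3 glia and 4 GPC libraries, with the mean of the 4 GPC libraries subtracted, in the row order of the plot of levels. Blue is lower and red higher than GPC on a scale of -1.6 to 1.6; Srsf12, Sfrs18 and Ptbp2 are the rows that are red in all 3 glia libraries by more than the spread of the GPC libraries.

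Other genes of RNA splicing were set beside these families. Over all genes tested 35.2% fell and 35.2% rose. Of 19 tested genes that encode hnRNPs or close partners under other symbols, 16 fell and 3 passed in neither direction, with a median log2 change of -0.65. Ybx1, which encodes an mRNA-packaging cold shock protein, fell most, at 150.1 ± 17.4 RPKM in glia and 297 ± 14.0 RPKM in GPC (log2 change -1.01 ± 0.09). Of 25 core proteins of the small nuclear ribonucleoproteins (snRNPs), the building blocks of the spliceosome, 23 fell and 2 passed in neither direction, with a median of -0.86. The Sm protein gene Snrpf fell most, at 49.9 ± 6.06 RPKM in glia and 134 ± 24.0 RPKM in GPC (log2 change -1.42 ± 0.16), and 10 of the 25 fell at least 2-fold. Of 25 U2 factors and tri-snRNP proteins 22 fell and 1 rose, with a median of -0.58. Ppih, a cyclophilin of the tri-snRNP, had the largest fall (log2 change -1.02 ± 0.18). Its level was 4.42 ± 0.713 RPKM in glia and 12.5 ± 3.51 RPKM in GPC, further apart than the change fitted to counts. The gene that rose was Eftud2, the U5 GTPase, at 105 ± 2.54 RPKM in glia and 68.8 ± 4.55 RPKM in GPC (log2 change 0.57 ± 0.07). In edgeR's fit the adjusted p was 3.93e-06 for Ybx1, 2.01e-05 for Snrpf, 0.000445 for Ppih and 2.42e-05 for Eftud2.

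The genes that modify and move SR proteins and hnRNPs were divided. Of 14 kinases, phosphatases and import factors of SR proteins 5 rose and 5 fell, with a median log2 change of -0.05. These shares, 35.7% in each direction, were near those of all genes tested, of which 35.2% rose and 35.2% fell. Srpk3, a kinase of SR proteins best known from muscle, rose most but was low throughout, at 3.57 ± 1.15 RPKM in glia and 0.308 ± 0.167 RPKM in GPC (log2 change 3.40 ± 0.35). The others that rose, named after their values were seen, were Clk1, Clk4, Srpk2 and Ppp1cb, with Clk1, a nuclear kinase of SR proteins, at 54.0 ± 4.71 RPKM in glia and 36.8 ± 3.38 RPKM in GPC (log2 change 0.62 ± 0.07). The import receptor Tnpo1, which carries hnRNP A proteins into the nucleus, fell most, at 27.8 ± 4.45 RPKM in glia and 55.4 ± 7.70 RPKM in GPC (log2 change -1.04 ± 0.13). Of 10 arginine methyltransferases and partners, enzymes that modify many hnRNPs, 6 fell (60%) and 2 rose (20%), with a median of -0.33. Prmt1, the main enzyme of the family, fell most, at 140.5 ± 12.7 RPKM in glia and 314 ± 22.6 RPKM in GPC (log2 change -1.19 ± 0.09), and its brain-restricted relative Prmt8 rose most, at 10.4 ± 0.647 RPKM in glia and 1.03 ± 0.704 RPKM in GPC (log2 change 3.15 ± 0.34). By edgeR the adjusted p was 1.04e-05 for Srpk3, 3.13e-05 for Clk1, 6.37e-05 for Tnpo1, 8.89e-07 for Prmt1 and 4.2e-05 for Prmt8.

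Of 24 SR-related proteins 11 fell (45.8%) and 3 rose (12.5%), with a median of -0.16. Over all genes tested 35.2% fell and 35.2% rose. Without GPC replicate 3 the SR-related counts were 12 and 6, and over all genes 5114 fell and 5159 rose. Rnps1, part of the exon junction complex, fell most (log2 change -0.71 ± 0.08, adjusted p = 2.22e-05 by edgeR). Srrm3, a regulator of neuronal microexons, rose most but stayed low, at 3.65 ± 0.852 RPKM in glia and 0.293 ± 0.0783 RPKM in GPC (log2 change 3.55 ± 0.23, adjusted p = 3.67e-07 by edgeR). Of 15 genes of nonsense-mediated decay, the pathway through which many SR proteins limit their own mRNA, 11 fell (73.3%) and 1 rose (6.67%), with a median of -0.36. Magohb, an exon junction protein, fell most (log2 change -0.94 ± 0.12, adjusted p = 6.36e-05 by edgeR). Upf2 was the one that rose (log2 change 0.26 ± 0.09, adjusted p = 0.0288 by edgeR), a call that was lost without glia replicate 2, GPC replicate 2 or GPC replicate 4.

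Other splicing regulators, many of them restricted to certain tissues, moved in both directions. Of 26 tested genes of the RBFOX, NOVA, MBNL, CELF, ELAVL, KHDRBS and RBM kind, 11 rose and 7 fell, with a median log2 change of 0.15. That is 42.3% and 26.9%, against 35.2% of all genes tested in each direction. The number that fell was 4 without glia replicate 3. Khdrbs2, which encodes the STAR protein SLM1, rose most, at 6.61 ± 0.589 RPKM in glia and 0.164 ± 0.133 RPKM in GPC (log2 change 5.15 ± 0.35, adjusted p = 5.48e-07 by edgeR). Mbnl3, low in every library, fell most, at 0.131 ± 0.0536 RPKM in glia and 0.422 ± 0.0770 RPKM in GPC (log2 change -1.84 ± 0.28, adjusted p = 0.000172 by edgeR). Whether the lists differ from each other was not tested.

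Cell cycle genes, a measure of dividing cells, were also lower in glia. Over all genes tested 35.2% fell. All 24 cell cycle genes fell, with a median log2 change of -2.21 and a summed level of 429 to 441 RPKM in glia and 1599 to 2057 RPKM in GPC, the lowest GPC value being that of replicate 3. Tk1, thymidine kinase of the S phase, fell most, at 7.00 ± 0.188 RPKM in glia and 69.1 ± 13.8 RPKM in GPC (log2 change -3.31 ± 0.18, adjusted p = 1.86e-07 by edgeR). The part of cell division in the members' result was not tested.

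**Figure D5:**
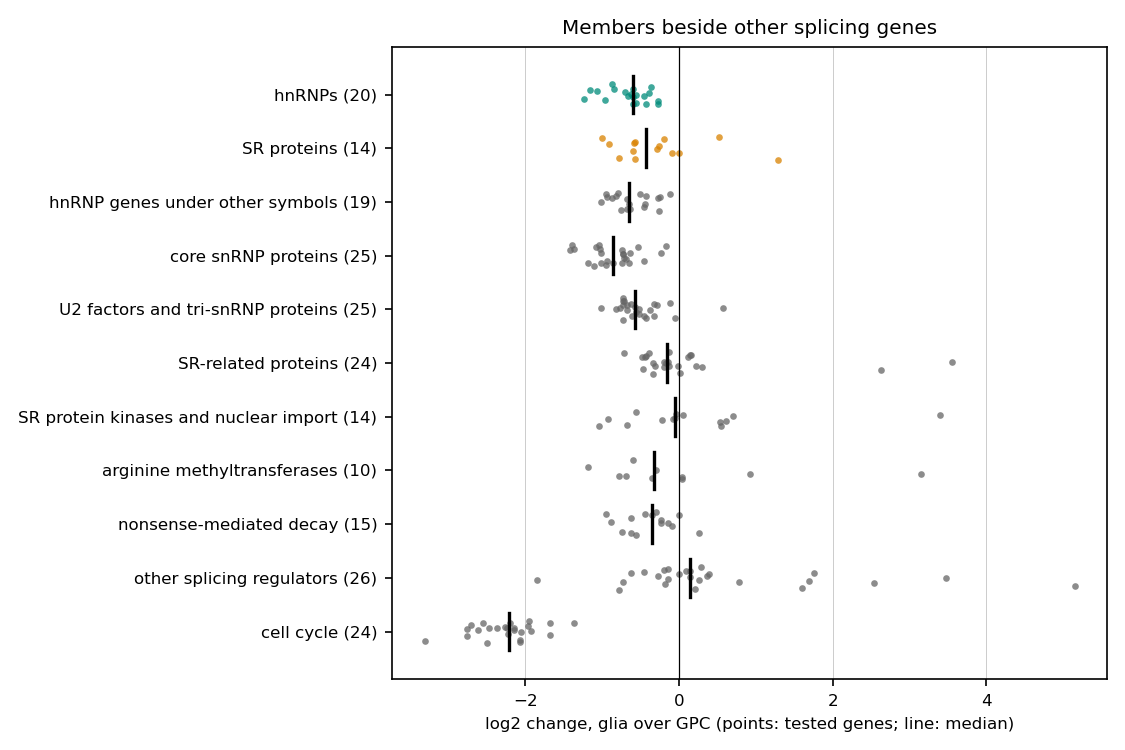
log2 change in glia over GPC of each tested gene (points) and the median (black line) of hnRNPs, SR proteins and 9 other gene lists, with the number of tested genes in brackets. The median is -0.60 for hnRNPs, -0.43 for SR proteins, -0.86 for core snRNP proteins, 0.15 for other splicing regulators and -2.21 for cell cycle genes.

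In the authors' SOX3 and SOX9 peak lists for GPC, which give a gene name and a signed distance for each peak, 1 of 1367 SOX3 peaks and 3 of 2943 SOX9 peaks carried a member as their gene, which is 2.78% of the 36 member symbols for SOX3 and 8.33% for SOX9. Over all symbols of the expression table the shares were 4.36% for SOX3 and 8.83% for SOX9, so the members' shares were near the background. The NFIA list names no genes and was used for overlaps. The SOX3 peak, chr4:131429237-131429341 in mm9, lay 243 bases upstream of the Srsf4 start (distance -243). The SOX9 peaks lay 225 bases upstream of Hnrnpl (chr7:29595431-29596031, distance -225), 15970 bases upstream of Srsf1 (chr11:87844605-87845205, distance -15970) and 36548 bases upstream of Hnrnpk (chr13:58540953-58541553, distance -36548). NFIA peaks overlapped the SOX9 peaks of Srsf1 and Hnrnpk, each by 301 bases, and neither of the peaks within 1000 bases of a start. No SOX3 and SOX9 peak of the members overlapped. The 4 genes with a peak fell by 0.57 to 0.66 on the log2 scale, close to the members' median, and their number is too small to compare with the rest.

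Promoter windows, reaching from 250 bases before to 50 bases after a RefSeq gene start (GRCm38.p6), were found for 33 of the 36 symbols, in 45 windows. Sfrs18, Hnrpll and Hnrnpul2 had none. The windows of the genes with a proximal SOX peak, of the member that fell most, and of the PTB pair that moved apart are shown. Capitals mark matches, on either strand, to the SOX letters ACAANG, the CCAAT box CCAAT, the E2F letters TTTNNCGC and the ETS letters CCGGAAG, and where matches touch they run together. The peaks above are in mm9 and were not placed on these windows.
Srsf4 promoter, chr4:131873387-131873686 (plus strand): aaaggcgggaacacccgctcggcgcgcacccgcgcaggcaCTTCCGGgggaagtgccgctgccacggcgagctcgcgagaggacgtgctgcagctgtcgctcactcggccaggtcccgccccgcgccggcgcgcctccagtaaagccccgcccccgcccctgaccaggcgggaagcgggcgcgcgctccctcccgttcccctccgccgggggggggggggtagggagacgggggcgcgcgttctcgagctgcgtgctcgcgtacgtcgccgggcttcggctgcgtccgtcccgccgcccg
Hnrnpl promoter, chr7:28810640-28810939 (plus strand): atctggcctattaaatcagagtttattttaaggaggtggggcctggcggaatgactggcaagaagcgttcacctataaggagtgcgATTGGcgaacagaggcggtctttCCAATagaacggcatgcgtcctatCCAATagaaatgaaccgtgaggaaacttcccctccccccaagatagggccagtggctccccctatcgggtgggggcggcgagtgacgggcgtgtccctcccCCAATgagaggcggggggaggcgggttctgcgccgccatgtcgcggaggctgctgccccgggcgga
Hnrnpab promoter, chr11:51606832-51607131 (minus strand): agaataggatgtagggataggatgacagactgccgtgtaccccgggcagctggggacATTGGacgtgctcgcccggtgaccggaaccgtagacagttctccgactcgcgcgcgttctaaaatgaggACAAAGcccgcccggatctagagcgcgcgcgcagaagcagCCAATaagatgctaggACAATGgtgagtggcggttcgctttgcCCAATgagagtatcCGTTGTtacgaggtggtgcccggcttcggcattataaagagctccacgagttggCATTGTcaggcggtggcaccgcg
Ptbp1 promoter, chr10:79854182-79854481 (plus strand): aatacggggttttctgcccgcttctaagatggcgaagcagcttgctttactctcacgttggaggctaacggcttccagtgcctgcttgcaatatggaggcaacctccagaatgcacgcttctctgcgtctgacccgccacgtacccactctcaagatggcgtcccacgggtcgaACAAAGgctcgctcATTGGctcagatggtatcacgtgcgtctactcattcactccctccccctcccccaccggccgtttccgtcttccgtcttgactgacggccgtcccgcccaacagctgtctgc
Ptbp2 promoter, chr3:119783339-119783638 (minus strand): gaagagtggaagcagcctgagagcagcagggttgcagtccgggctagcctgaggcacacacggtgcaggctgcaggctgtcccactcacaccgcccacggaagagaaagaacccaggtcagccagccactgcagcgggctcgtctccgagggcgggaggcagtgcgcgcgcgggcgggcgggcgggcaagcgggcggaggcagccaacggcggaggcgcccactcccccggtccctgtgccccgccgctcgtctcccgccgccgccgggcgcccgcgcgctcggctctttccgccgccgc

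The Srsf4 window is 1 of 3 for this gene. It held 1 ETS match, at position -210 from the start, and none to the SOX letters. The Hnrnpl window held 4 CCAAT matches, at -164, -141, -117 and -16, and none to the SOX letters. Hnrnpab had 4 matches to the SOX letters, at -124, -68, -27 and 28, and 3 CCAAT matches, while no SOX3 or SOX9 peak was assigned to it. Ptbp1 had 1 match to the SOX letters at -76 and 1 CCAAT match at -62, and Ptbp2 had no match to any of the 4 motifs.

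Over all member windows, 26.7% held the SOX letters, against 41.3% of all 32851 windows. The CCAAT box was in 51.1% of member windows and 37.4% of all, the E2F letters in 15.6% and 5.17%, and the ETS letters in 22.2% and 8.86%. The NFI half-site TTGGC was in 57.8% and 46.7%, the E-box CACGTG in 13.3% and 7.15%, and the NRF1 letters GCATGCGC in 6.67% and 2.71%. Counted by gene, the SOX letters were in 36.4% of 33 member genes and 44.9% of all genes. By gene the CCAAT box was in 57.6% and 41.1%, the E2F letters in 21.2% and 5.93%, and the ETS letters in 18.2% and 9.93%. The members with the E2F letters were Hnrnpc, Hnrnpr, Hnrnpul1, Srsf1, Srsf3, Srsf10 and Tra2b. The median GC content was 67.3% in member windows and 52.7% in all windows, and several windows of one gene can overlap, so these shares are descriptions and were not tested.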

How the data were processed

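RNA-seq gave, per the file headers, read counts per gene deposited as whole numbers without normalization, and RPKM values that the authors scaled by gene model length and library reads. Counts were used for tests and RPKM for levels. The submitters' processing notes name mm9 as the build. They name no aligner or counting tool, and the use of strand is not stated, so reads of overlapping genes, antisense genes and near-identical copies cannot be told apart. SOX3 and SOX9 peak lists carry the authors' gene and distance, and the NFIA list a score per peak deposited without a definition, which was not compared. MACS and MACS2 are named in the submitters' processing notes. Each factor has 1 list over all its samples. The inputs and H3K27Ac samples were not used here.

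All genes were fitted in R 4.3.3 with edgeR 4.0.16 (TMM, default filterByExpr, robust quasi-likelihood), glia over GPC, with Benjamini-Hochberg adjustment over 13588 genes and calls at 0.05, two-sided. The standard error is the size of the log2 change over the square root of F. Alternatives were other scalings, DESeq2 1.42.0, other filters, limma 3.58.1 on log2(RPKM + 1), leaving out each library and a replicate block. No pair of replicates agreed within counting noise (chi-square of 2.05 to 29.9 a gene). Depth limits rare genes: Srsf12 had as few as 30 reads.

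The members and gene lists were chosen with earlier results of these data known. Values in every sample are given for the PTB and TRA2 genes, the 6 largest falls and the rises among called members, the 5 most abundant, and members whose call changed. Srsf2, Hnrnpa0 and Srsf10 were added after their values were seen. From each other splicing list and the cell cycle list the largest rise and fall past the threshold are named. List symbols were matched directly or through RefSeq synonyms of GRCm38.p6, and a list gene on several lines was taken from the line with most reads.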

Additional observations from a re-analysis of the deposited data

Results flagged for a closer look

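Within the 4 GPC libraries, 6 of 36 members had 1 library far from the other 3, by a gap above Dixon's 95% critical value. Chance flags about 1 in 20 groups. GPC replicate 3 was that library for 4 members, high for Hnrnpa0 (232 RPKM) and Hnrnpl (267 RPKM) and low for Hnrnph1 (215 RPKM) and Hnrnpul2 (56.7 RPKM). GPC replicate 2 was that library for 2 members, high for Hnrnpd (64.8 RPKM) and low for Hnrnpul1 (91.9 RPKM). All 6 of these members fell in glia in each of the 15 distinct alternative fits as well. The cause of the deviating values was not tested.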

How the results depend on the processing

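Over 15 distinct alternative fits, 28 to 31 of the 36 tested members fell and 3 rose in each. The members' median log2 change stayed between -0.60 and -0.54, and that of all genes between -0.0039 and 0.047. Leaving out 1 library at a time gave 28 to 31 falls, the lowest without glia replicate 1 and the highest without GPC replicate 3. Over member and fit, 529 values kept direction and side of the threshold. The calls that ended were those of Srsf11 and Hnrnph3 given above, and Srsf5 was gained without GPC replicate 3. The sign of the uncalled Tra2a change turned to -0.0064 with DESeq2, -0.012 without the filter on low counts, and -0.00035 in replicates 1 to 3 without a block, which are the same libraries as without GPC replicate 4. With 1 library left out it lay between -0.038 and 0.080. The cause was not tested. Deviations of same-numbered glia and GPC replicates correlated at -0.020, 0.138 and 0.068, and those of differently numbered replicates at -0.160 to 0.094. Correlations this weak, from so few libraries, cannot settle whether the numbers pair the samples. With the replicate number as a block, over replicates 1 to 3, 3 members rose and 29 fell, Hnrnph3 being lost (adjusted p = 0.0533), and 4542 genes rose and 4401 fell, against 4789 and 4779 in the fit of all libraries. Replicates 1 to 3 without the block, added after the data were seen, gave 30 falls among the members. Without its most abundant gene, Hnrnpa2b1, the members' sum was 3038 RPKM in glia and 4617 RPKM in GPC. All 4 SOX peaks of members lay within 100 kb of the start, and both NFIA overlaps covered at least 0.5 of the SOX peak. Depth limits Srsf12, and counted lengths under 600 bases limit Hnrnpa1, Hnrnpf, Hnrnph3 and Hnrnpk.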
